A study of Mus musculus with 24 samples.

Results

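The phagocyte NADPH oxidase is described here through the transcripts of 5 of its subunits, Cybb, Cyba, Ncf1, Ncf4 and Rac2, in mouse bone marrow cultures of dendritic cells (DCs), which take up antigen and show it to T cells. The genes were chosen by name, and each of the 5 symbols matched 1 Ensembl identifier among the 55414 gene lines counted: ENSMUSG00000015340 for Cybb, ENSMUSG00000006519 for Cyba, ENSMUSG00000015950 for Ncf1, ENSMUSG00000071715 for Ncf4 and ENSMUSG00000033220 for Rac2. All 5 passed the filter on low counts in every fit. The question was whether the membrane subunits and the cytosolic subunits moved together.

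The enzyme passes electrons from NADPH in the cytosol across a membrane to oxygen and makes superoxide. Cybb (also called NOX2 or gp91phox) holds the flavin and haem groups that carry the electrons, and Cyba (p22phox) is its partner in the membrane. Ncf1 (p47phox) and Ncf4 (p40phox) wait in the cytosol and dock on the membrane pair after a stimulus, together with a small GTPase, Rac2 in many blood cells. In DCs, superoxide made inside the phagosome consumes protons and slows acidification, which preserves peptides of engulfed antigen for presentation to CD8+ T cells (cross-presentation).

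The libraries came from bone marrow of C57BL/6JRj mice, wild type or Cas9-EGFP, and the labels give no genotype for the single libraries. GM cultures received GM-CSF at 20 ng/ml and FL cultures GM-CSF at 20 ng/ml with FLT3L at 200 ng/ml; the FL cells were harvested at day 16, and for the GM cells the labels' extract protocol gives day 8 and their growth protocol day 9. Cells were taken before treatment (t0) or after 24 h with AZD5582, a compound that blocks IAPs (proteins that restrain cell death and non-canonical NF-kB signalling), or with its solvent DMSO. The 8 groups of 3 libraries are GM t0, GM DMSO, GM with 0.1, 0.5 or 1 µM AZD5582, FL t0, FL DMSO and FL with 0.05 µM AZD5582. The series calls the GM cells monocyte-derived DCs and the FL cells type 1 conventional DCs (cDC1), and its design text counts 3 biological replicates per group. In the titles the FL libraries carry 3 culture numbers (91, 94 and 95) and the GM libraries a single one, so the p-values within GM cultures measure the spread between libraries that share a culture number.

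Gene counts per library ran from 27.01 to 85.8 M (1 M is 1e+06 counts), with a median of 51.7 M. Values below are CPM, counts per 1e+06 of library size, with sizes scaled by TMM, a trimmed mean of log ratios, and group values are mean ± SD of n = 3 libraries. Group differences are log2 changes ± SE from edgeR's quasi-likelihood test. A gene is called at a Benjamini-Hochberg adjusted p under 0.05 over all genes of a fit. CPM were scaled over all 24 libraries, and tests within GM or FL cultures over the libraries of that culture type alone. A change from a test can therefore differ from the change between the CPM means of the same groups. FL libraries at t0 held the cDC1 receptor Xcr1 at 105.3 to 383 CPM and GM libraries at t0 at 0.105 to 0.165 CPM. After 24 h Xcr1 stood at 7.76 to 26.4 CPM in FL DMSO and at 1.67 to 2.76 CPM in FL with AZD5582. The sum of 11 cDC1 markers did not follow Xcr1 there. In FL libraries it was 2388 to 5583 CPM at t0, 1113 to 2326 in DMSO and 1921 to 4398 with AZD5582. Irf8, the most abundant, stood at 879 ± 508 CPM in FL DMSO and 2323 ± 1130 with AZD5582. Between these groups 3 of the 11 were called lower and none higher, where 2.90% of all genes were called.

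Cybb differed most between groups. Its 3 GM t0 libraries stood at 925, 977 and 849 CPM, and the GM DMSO libraries at 1685, 1508 and 1495 CPM. With 0.1 µM AZD5582 the values were 586, 796 and 663 CPM, with 0.5 µM 355, 356 and 311 CPM, and with 1 µM 337, 297 and 268 CPM. Every AZD5582 library of the GM cultures therefore lay below every DMSO and every t0 library, and the groups at 0.5 and 1 µM overlapped. FL libraries were lower still: 95.02, 114 and 98.6 CPM at t0, 115, 207 and 156 CPM in DMSO, and 67.5, 124 and 91.8 CPM with AZD5582 (cultures 91, 94 and 95). From the highest group mean (GM DMSO) to the lowest (FL with AZD5582) Cybb spanned 16.6-fold. In that order the neighbours that overlapped were GM 0.5 µM with GM 1 µM, and FL t0 with FL 0.05 µM.

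Against DMSO, Cybb in GM cultures fell by 1.13 ± 0.12 on the log2 scale at 0.1 µM (edgeR, adjusted p = 8.605e-07). The fall was 2.10 ± 0.13 at 0.5 µM (log2 change -2.10, adjusted p = 2.658e-10) and 2.27 ± 0.13 at 1 µM (log2 change -2.27, adjusted p = 9.335e-11). At 1 µM it was also 2.84-fold lower than at t0 (edgeR, adjusted p = 4.54e-09), whereas after 24 h in DMSO it was 1.69-fold higher than at t0 (adjusted p = 5.603e-05). No group was kept for 24 h without DMSO or AZD5582, so time in culture and solvent cannot be told apart. In bulk RNA, fewer cells of a type and less RNA per cell cannot be told apart.

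Cyba, the membrane partner, moved much less. GM t0 libraries held 654, 664 and 587 CPM, DMSO libraries 781, 709 and 643, 0.1 µM libraries 598, 611 and 654, 0.5 µM libraries 428, 457 and 438, and 1 µM libraries 577, 389 and 430 CPM. The groups at 0.1 µM and in DMSO overlapped, and those at 0.5 and 1 µM lay below DMSO. The log2 change against DMSO was -0.12 ± 0.13 at 0.1 µM (edgeR, adjusted p = 0.4736, 95% interval -0.39 to 0.14), -0.60 ± 0.13 at 0.5 µM (adjusted p = 6.917e-04) and -0.50 ± 0.13 at 1 µM (adjusted p = 2.812e-03). The 1 µM library at 577 CPM (replicate 1) had 8.04% of its gene counts on mitochondrial genes, the highest share of the 24 libraries, and was also the highest of its group in Cybb, Ncf4 and Rac2. Without it the log2 changes at 1 µM against DMSO were -2.38 for Cybb, -0.71 for Cyba, -1.37 for Ncf4 and -1.91 for Rac2 (edgeR, adjusted p = 9.025e-11, 4.094e-06, 2.069e-08 and 3.35e-11). FL libraries held 265, 297 and 303 CPM at t0, 389, 357 and 312 in DMSO and 386, 359 and 317 with AZD5582. The lowest GM library (389 CPM, at 1 µM) and the highest FL library (389 CPM, in DMSO) met, and all other FL libraries lay below all GM libraries. The span of Cyba group means was 2.47-fold, and in their order GM DMSO, t0 and 0.1 µM overlapped from neighbour to neighbour.

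Ncf1, the organiser that bridges the cytosolic complex to Cyba, went the other way. GM libraries held 469, 399 and 430 CPM at t0, 814, 908 and 827 in DMSO, 1490, 1472 and 1551 at 0.1 µM, 1742, 1959 and 2152 at 0.5 µM, then 1838, 1950 and 2160 at 1 µM. No GM group overlapped the next in this order except 0.5 and 1 µM. Against DMSO, Ncf1 rose by 0.89 ± 0.10 at 0.1 µM (edgeR, adjusted p = 1.081e-06), 1.29 ± 0.10 at 0.5 µM (5.696e-09) and 1.33 ± 0.10 at 1 µM (3.468e-09). After 24 h in DMSO it was already 0.96 ± 0.10 above t0 (edgeR, adjusted p = 3.164e-07). In the fit of the GM libraries, 1 µM stood 4.90-fold above t0. In mean CPM, scaled over all 24 libraries, the same 2 groups were the highest and lowest of all 8, with a span of 4.58-fold. FL groups overlapped their neighbours in that order except FL t0 with GM DMSO.

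In the annotation of GRCm38 (GENCODE M21), 408 of the 3663 exon bases of Ncf1 are shared with Gtf2ird2 on the opposite strand, and no source used here says whether the counting used strand. Gtf2ird2 was counted at 3.06 to 9.70 CPM over the 24 libraries, and its log2 change at 1 µM against GM DMSO was -0.31 ± 0.21 (edgeR, adjusted p = 0.236). These counts do not show how reads in the shared bases were assigned, and their part in the Ncf1 values was not tested. No other of the 5 subunit genes shared exon bases with another gene there.

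Ncf4, the subunit that binds phosphatidylinositol 3-phosphate on phagosomes, followed Cybb in direction. GM libraries held 87.1, 98.3 and 85.2 CPM at t0, 146, 154 and 133 in DMSO, 66.4, 85.0 and 90.9 at 0.1 µM, 53.9, 60.7 and 53.5 at 0.5 µM, then 76.4, 53.4 and 51.2 at 1 µM. All AZD5582 libraries were below all DMSO libraries. The log2 changes against DMSO were -0.77 ± 0.14, -1.27 ± 0.15 and -1.14 ± 0.15 at 0.1, 0.5 and 1 µM (edgeR, adjusted p = 3.237e-04, 8.125e-07 and 2.628e-06). In DMSO it was 1.59-fold higher than at t0 (adjusted p = 0.0009155). Over all 8 groups its means spanned 2.58-fold, and apart from GM DMSO, the highest, each group overlapped the next in the order.

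Rac2, the GTPase of blood cells that activates the assembled enzyme, fell in GM cultures without a rise before it. GM libraries held 559, 549 and 517 CPM at t0, 469, 433 and 399 in DMSO, 161, 172 and 175 at 0.1 µM, 112, 126 and 113 at 0.5 µM, then 154, 104 and 114 at 1 µM. The log2 changes against DMSO were -1.29 ± 0.13, -1.79 ± 0.13 and -1.70 ± 0.13 (edgeR, adjusted p = 2.290e-07, 1.875e-09 and 3.115e-09). Between t0 and DMSO it fell by 0.33 ± 0.12 (adjusted p = 0.03515), a call that was lost without GM t0 replicate 1 (0.0878) or 2 (0.0846) or GM DMSO replicate 2 (0.0780) or 3 (0.12), and with all 24 libraries in one fit (0.6785). Over all 8 groups its means spanned 4.63-fold; GM t0 and GM DMSO stood above the rest without overlap, and each lower group overlapped the next.

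**Figure D1:**
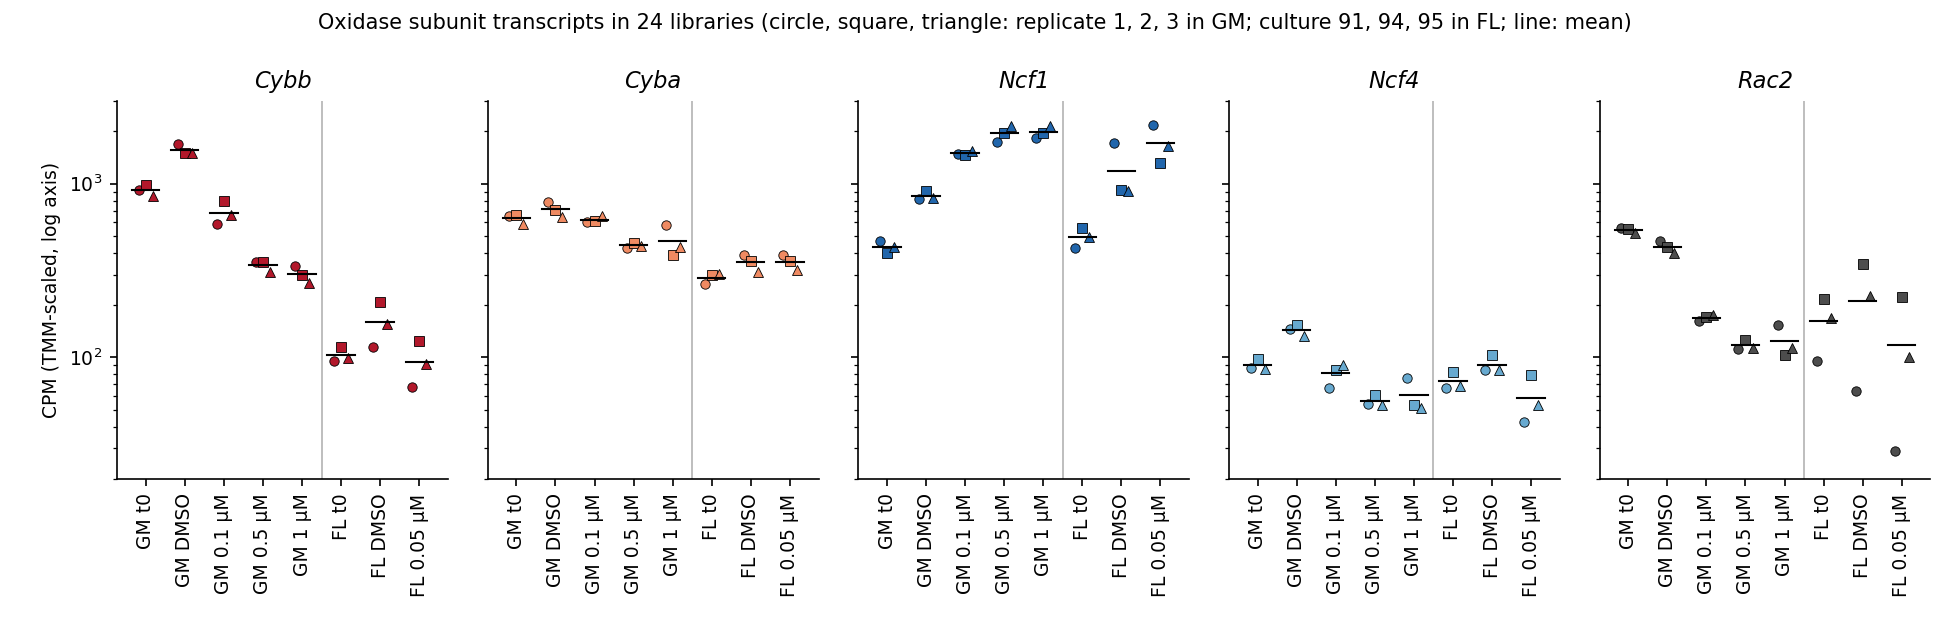
TMM-scaled CPM of the 5 subunit genes on a log axis, 1 point per library, in the 8 groups of 3 (line, group mean). In GM cultures, Cybb, Ncf4 and Rac2 libraries with AZD5582 all lie below the DMSO libraries and Ncf1 libraries all lie above them.

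In GM cultures, 3 members fell and 1 rose at 0.1 µM, where 40.3% of the 16152 genes tested were called (19.9% up and 20.3% down). At 0.5 and 1 µM, 4 fell and 1 rose in each, where 53.5% of genes (25.8% up, 27.7% down) and 55.1% (26.9% up, 28.2% down) were called. With such shares, the number of members called does not set the subunits apart from other genes; the median log2 change of all genes tested at 1 µM was -0.01. Between 0.1 and 0.5 µM all 5 were called, 4 down and 1 up (Ncf1), where 11.4% of genes were called (2.98% up and 8.47% down). The count of 5 became 2 without GM 0.1 µM replicate 2 or GM 0.5 µM replicate 1, 3 without GM 0.1 µM replicate 3 and 1 without GM 0.5 µM replicate 3, and it was 1 when all 24 libraries shared a fit. Between 0.5 and 1 µM no member was called, and 0.00% of genes were called (edgeR, 870 genes at an unadjusted p under 0.05, and 8 called by DESeq2). There the 95% intervals of the log2 change were -0.42 to 0.09 for Cybb, -0.17 to 0.36 for Cyba, -0.17 to 0.25 for Ncf1, -0.18 to 0.43 for Ncf4 and -0.16 to 0.36 for Rac2.

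Over 24 h in DMSO, 3 members rose in GM cultures (Cybb, Ncf1 and Ncf4) and 1 fell (Rac2), where 47.5% of genes were called (27.2% up and 20.3% down). Set against t0, all 5 members were called at 1 µM, where 68.9% of genes were called (34.96% up and 33.96% down). Ncf1 stood higher than at t0 and the other members lower, Cyba by the least (log2 change -0.35 ± 0.13, adjusted p = 0.02218), a call lost without GM t0 replicate 1 (0.0563) or 2 (0.0687) or GM 1 µM replicate 2 (0.124) or 3 (0.0910), and with the compared groups alone (0.0621). The comparisons with DMSO share the DMSO libraries, and so do those of DMSO with t0.

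**Figure D2:**
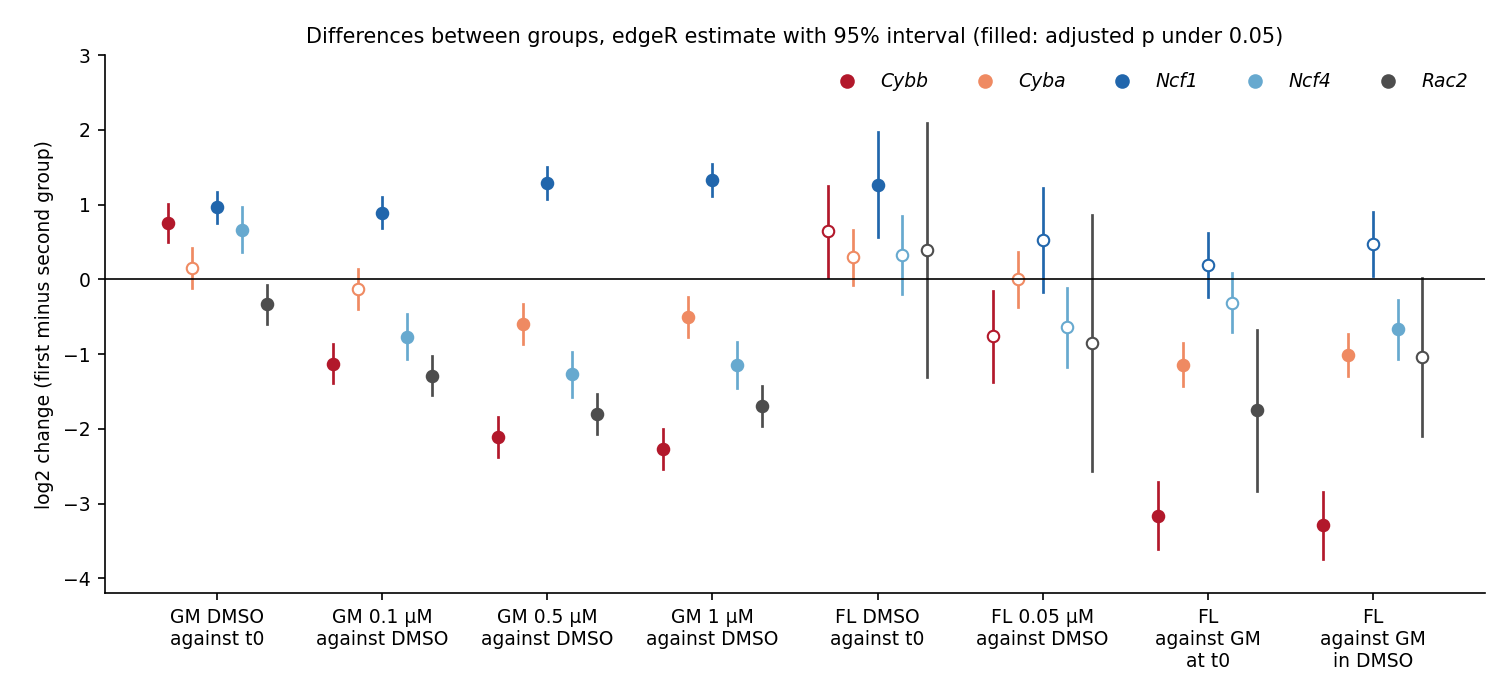
Log2 change of each subunit gene (y axis, first group minus second) with its 95% interval in 8 comparisons; filled points have an adjusted p under 0.05. Ncf1 is above 0 and the other members are below 0 at all 3 GM doses, with Cyba not called at 0.1 µM.

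The ratio of 2 transcripts within a library does not depend on library scaling, and it was used to ask whether subunits moved together. No test was made on these ratios. In log2, Ncf1 to Cybb was -0.88 ± 0.16 in GM DMSO, 1.15 ± 0.24 at 0.1 µM, 2.52 ± 0.25 at 0.5 µM and 2.72 ± 0.28 at 1 µM. These groups did not overlap with DMSO, and the ratio was 4.09-, 10.5- and 12.1-fold above DMSO. Between t0 (-1.09 ± 0.18) and DMSO the ratio rose 1.15-fold and the groups overlapped. Ncf1 and Cybb both rose over 24 h in solvent, and against DMSO they went opposite ways with AZD5582. Overlap of 3 libraries with 3 does not show that Ncf1 and Cybb moved together in solvent.

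The membrane pair parted as well, and not only with AZD5582. Between GM t0 and DMSO, Cyba to Cybb had fallen 1.52-fold, without overlap. Cyba to Cybb was 2.02-, 2.85- and 3.37-fold above DMSO at 0.1, 0.5 and 1 µM, with no overlap. Against DMSO, Rac2 stayed closest to Cybb: its ratio at 0.1 µM overlapped DMSO, and at 1 µM it was 1.47-fold above DMSO. Between t0 and DMSO, however, Rac2 to Cybb had fallen 2.13-fold, without overlap. Ncf4 to Cybb was 1.28-, 1.78- and 2.15-fold above DMSO. The cytosolic subunits also parted from each other, with Ncf1 to Ncf4 at 3.19-, 5.90- and 5.65-fold and Ncf1 to Rac2 at 4.53-, 8.48- and 8.27-fold the DMSO value. From t0 to DMSO, Ncf1 to Ncf4 had already risen 1.23-fold and Ncf1 to Rac2 2.46-fold, without overlap. Of the ratios computed, those of Ncf1 to another member were the furthest from DMSO at every dose.

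**Figure D3:**
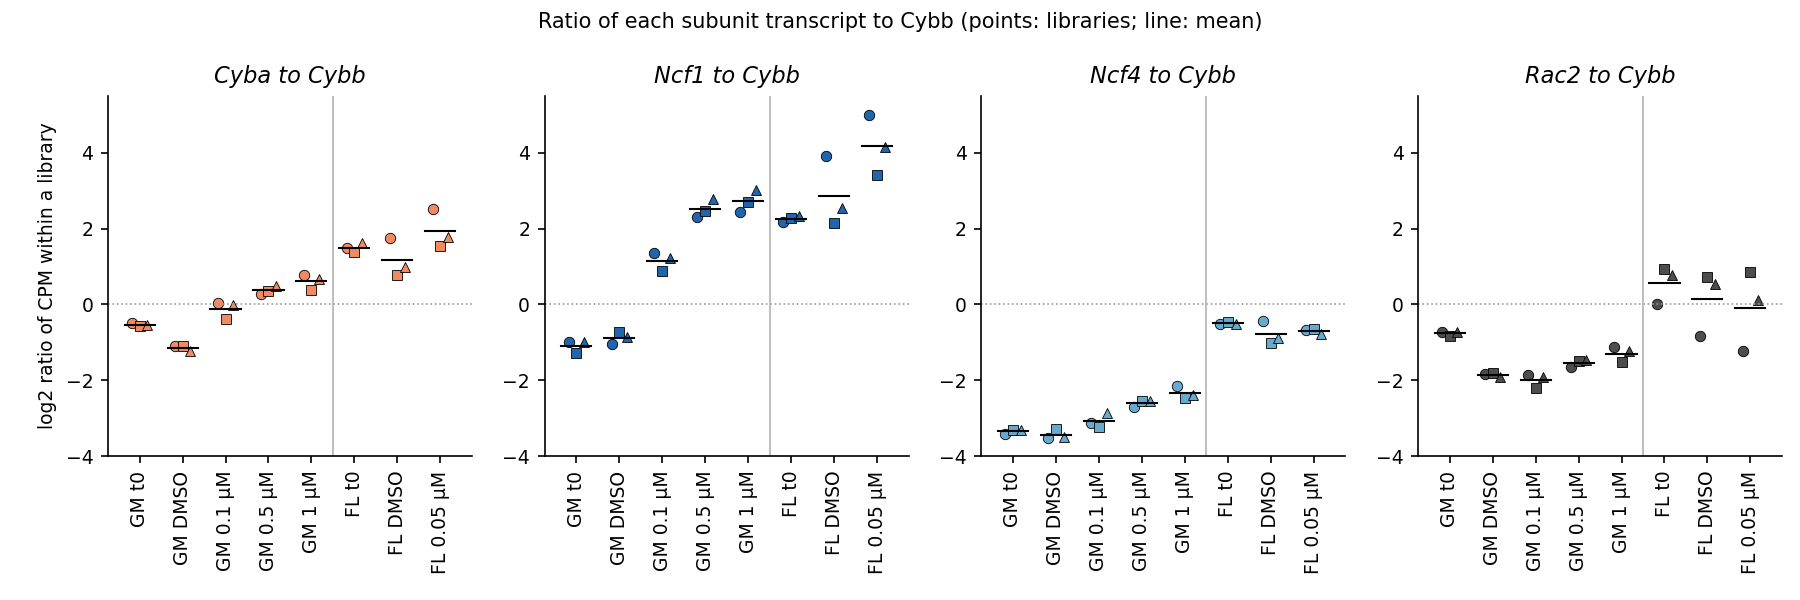
Log2 ratio of the CPM of each subunit gene to that of Cybb within a library, by group (points, libraries; line, mean; dotted line, equal CPM). The Ncf1 ratio goes from -0.88 in GM DMSO to 2.72 at 1 µM, and the Rac2 ratio from -1.85 to -1.30.

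Per kilobase of exon, which allows a rough comparison of levels between genes, Cyba was the highest of the 5 in GM t0 and DMSO (611 and 684 mean CPM per kb). Ncf1 took its place in the group means at 0.5 and 1 µM (533 and 541 CPM per kb, against 424 and 448 for Cyba). Of the summed level of the 5 per kb, Cybb made 19.3% in GM DMSO and 4.67% at 1 µM, Ncf1 16.7% and 49.0%, Rac2 10.0% and 3.57%, Ncf4 5.12% and 2.68%, and Cyba 48.9% and 40.1%. At 1 µM the shares of Ncf1 (41.7% to 53.1%) and Cyba (36.8% to 46.2%) overlapped between libraries. Exon lengths join all annotated exons of a gene in GENCODE M21, which is of another build than the counting. The transcripts in use may be shorter, so ranks and shares between genes are approximate.

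Promoter windows are shown for Cybb, which fell most against DMSO at 0.5 and 1 µM in GM cultures, and for Ncf1, which rose. At 0.1 µM Rac2 fell more than Cybb (log2 change -1.29 against -1.13). The windows are from RefSeq's GRCm38.p6 (the counts were made on GRCm39), and entries were found for 3 of the 5 members. Both genes are on the minus strand. The sequences run 5′ to 3′ and cover the 250 bases before the RefSeq transcript start, with matches of the searched motifs in capitals. The Cybb window, chrX:9469325-9469574, lies upstream of the first exon of the main transcript and in an intron of a longer one in GENCODE M21. The Ncf1 window is chr5:134229626-134229875.
Cybb: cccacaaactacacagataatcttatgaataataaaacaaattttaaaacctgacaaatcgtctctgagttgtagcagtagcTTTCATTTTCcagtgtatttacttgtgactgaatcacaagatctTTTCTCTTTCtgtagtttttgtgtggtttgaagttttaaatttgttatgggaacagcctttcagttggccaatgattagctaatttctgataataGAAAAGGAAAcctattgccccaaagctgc
Cybb, transcript start: gctgctgtTTTCATTTCCTCatcaga
Ncf1: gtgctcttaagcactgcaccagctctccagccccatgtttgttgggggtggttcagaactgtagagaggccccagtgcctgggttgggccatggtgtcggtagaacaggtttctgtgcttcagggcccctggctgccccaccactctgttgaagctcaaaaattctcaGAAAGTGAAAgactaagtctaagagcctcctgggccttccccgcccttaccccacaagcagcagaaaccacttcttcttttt
The short Cybb run is chrX:9469304-9469329 and spans the start. The 3 motifs below were searched on both strands of the 300-base windows, which reach 50 bases past the start. A pair of GAAA words with any 2 bases between them, a core of interferon-stimulated elements bound by interferon regulatory factors (IRFs), matched 3 times in Cybb (at 159 to 168, 115 to 124 and 20 to 29 bases before the start) and once in Ncf1 (73 to 82 bases before). It was found in 3.44% of 32851 promoters. GAGGAA, a core of sites for ETS factors such as PU.1, and GGAA followed after any 2 bases by GAAA, a composite of ETS and IRF sites, matched in Cybb at 10 to 15 and 4 to 13 bases after the start, overlapping each other. They were found in 28.3% and 2.72% of promoters. The search first covered only the 250 bases before the start and was widened to 300 bases after the Cybb sequence had been seen. In the 250 bases, GAGGAA (23.3% of promoters) and the composite (2.301%) matched in no member, and the GAAA pair (2.98%) matched in the same 2 genes, so the ETS and composite matches rest on the wider window. Cyba had no match to these letters. A match is a string of letters and was not tested for binding.

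Among 12 transcription factors listed for oxidase genes, 10 were tested in GM cultures, and at 1 µM 6 rose and 4 fell (median log2 change 0.57). At this dose 26.9% of all genes tested rose and 28.2% fell, with a median of -0.01, and the counts of the lists that follow stand beside these shares. Irf8, an IRF of DCs and monocytes, rose by 1.71 (edgeR, adjusted p = 1.80e-10), from 655 ± 68.5 CPM in DMSO to 1984 ± 78.6. Irf1, induced by interferon, rose by 1.61 (adjusted p = 4.25e-10). Spi1, which encodes PU.1, fell by 1.27 (log2 change -1.27, adjusted p = 3.28e-07), from 297 ± 52.0 to 114 ± 15.1 CPM. Cux1, described as a repressor of Cybb, and the IRF gene Irf2 fell too (-0.63 and -0.52).

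Other genes that act with the enzyme were measured as well. Rac1, the widely expressed relative of Rac2, stood at 611 ± 36.2 CPM in GM DMSO and 646 ± 62.6 at 1 µM (log2 change 0.19 ± 0.09, adjusted p = 0.0933). Cybc1, a chaperone of the membrane pair, stood at 89.8 ± 5.85 and 93.2 ± 1.40 CPM (0.16 ± 0.08, adjusted p = 0.101). Hvcn1, the proton channel that balances the charge the enzyme moves, rose by 0.47 ± 0.11 (adjusted p = 0.00173).

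Of 22 partners and activators, 13 fell and 3 rose at 1 µM, where 28.2% and 26.9% of all genes did (median log2 change -0.43). Among those that fell were Tiam1 (-2.17) and Vav1 (-1.45), exchange factors for Rac, the protein kinase C gene Prkcb (-1.75) and the p38 kinase gene Mapk14 (-1.46). The exchange factor Prex1 rose (0.65). Of the 9 genes of other NADPH oxidases only Noxo1, the organiser of NOX1, passed the filter. It stood at 0.537 to 2.13 CPM in GM libraries and at 1.81 to 6.83 CPM in FL libraries.

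Of 10 genes that supply NADPH, 8 fell and 1 rose at 1 µM, where 28.2% and 26.9% of all genes did (median log2 change -0.78, beside -0.01 for all genes). Nadk, the NAD kinase, fell by 1.55 (log2 change -1.55, edgeR, adjusted p = 1.49e-10), from 272 ± 22.3 CPM in DMSO to 86.4 ± 5.90. The pentose phosphate enzymes Pgd (-1.34) and Taldo1 (-0.97) and the dehydrogenase Idh2 (-0.91) fell, and the malic enzyme Me1 rose (0.52, adjusted p = 0.0375). Of 18 genes that remove superoxide and peroxide, 9 rose and 3 fell (median 0.40). Txn1 (1.32) and the extracellular dismutase Sod3 (1.32) rose, while Prdx5 (-1.62), Gpx1 (-1.36) and the mitochondrial dismutase Sod2 (-0.90) fell.

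Genes of phagosomal delivery and of PI3P, the lipid that Ncf4 binds, split 6 up and 4 down of 14 (median 0.01). Rab27a, which delivers oxidase-bearing vesicles to DC phagosomes, rose by 0.92 (edgeR, adjusted p = 5.21e-07), and Rab34 by 1.69 (1.54e-08). Subunits of the V-ATPase, the pump that acidifies phagosomes, split 4 up and 6 down of 17 (median -0.04). Atp6v0e rose (1.09), and Atp6v0a2 (-1.02) and the accessory subunit Atp6ap1 (-0.72) fell. Phagosomal pH was not measured in these libraries.

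Markers of cell types also changed in GM cultures, whose cells the series calls monocyte-derived DCs. Of 16 monocyte and macrophage markers, 15 fell at 1 µM, and their summed level went from 29997 to 36486 CPM in DMSO to 4178 to 5373. Lyz2 was their most abundant gene in every group, and Cd163 was at 0 in all libraries of the 3 AZD5582 groups. Of 16 neutrophil markers 14 fell, with sums of 919 to 1129 CPM in DMSO and 63.0 to 103 at 1 µM; Mmp8 led this list in GM cultures, and Elane was at 0 in the 1 µM group. All 12 markers of mature DCs rose, from sums of 10524 to 13539 CPM to 52043 to 80348, with Ccl22 the most abundant. Macrophages and neutrophils carry much of the oxidase of blood cells, and the part of these cells in the subunit values was not tested.

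FL and GM cultures were next compared before treatment; FLT3L, culture day and the cultures themselves all differ between them, so their parts cannot be told apart. Of the 5 members 3 were lower in FL cultures and none higher, where 40.9% of 17262 genes were called (23.4% up and 17.5% down). Cybb was 8.94-fold lower (log2 difference -3.16 ± 0.22, edgeR, adjusted p = 6.811e-10), Cyba 2.20-fold (-1.14 ± 0.14, 1.533e-06) and Rac2 3.37-fold (-1.75 ± 0.52, 0.01002). The Rac2 call was lost without FL t0 culture 91 (adjusted p = 0.0541). Ncf1 stood at 494 ± 65.4 CPM in FL and 432 ± 34.9 in GM (log2 difference 0.19, adjusted p = 0.4924, 95% interval -0.24 to 0.62), and Ncf4 at 72.8 ± 8.60 and 90.2 ± 7.08 CPM (-0.31, adjusted p = 0.201, interval -0.70 to 0.08). With the compared groups alone Ncf4 was called (-0.36, edgeR, adjusted p = 0.0208). Ncf1 to Cybb was 10.2-fold and Cyba to Cybb 4.07-fold higher in FL than in GM at t0, with no overlap.

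In DMSO, where 41.4% of genes were called (20.04% up and 21.4% down), 3 members were lower in FL cultures: Cybb 9.79-fold, Cyba 2.01-fold and Ncf4 1.59-fold (edgeR, adjusted p = 6.002e-10, 7.617e-06 and 0.007693). Ncf1 (0.48, adjusted p = 0.07058) and Rac2 (-1.04, 0.1073) were not called. Ncf1 was called with another scaling (median of ratios, 0.0372), with DESeq2 (0.0230) and without FL DMSO culture 94 (0.0251) or 95 (0.0276), and Rac2 without FL DMSO culture 94 (0.0281).

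Partners at t0 included Hvcn1 (-1.19), lower in FL, and Pak1, a kinase downstream of Rac (0.95), higher. Over the 22 partners 2 were higher and 5 lower, a share of 31.8% beside 40.9% of all genes. Of 17 V-ATPase genes 12 were lower and 1 higher in FL at t0 (median -0.72, beside 0.09 for all genes tested); Atp6v0d2, of the membrane sector, differed by -4.30. Of the 14 delivery genes 7 were higher, among them Rab39 (2.65) and Rab27a (1.39), and 2 were lower. Monocyte and macrophage markers were lower in FL at t0 (15 of 16, sums of 970 to 1194 against 20313 to 26081 CPM), and neutrophil markers were mostly higher (12 of 16, sums of 1364 to 4483 against 904 to 1026 CPM); their part in the subunit differences was not tested.

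In FL cultures treated with 0.05 µM, no member was called, where 2.90% of 15961 genes were called (2790 at an unadjusted p under 0.05; DESeq2 also called no member). This dose is below the lowest GM dose, so the culture types were not compared in their response. The log2 changes were -0.76 ± 0.27 for Cybb (adjusted p = 0.1847, 95% interval -1.37 to -0.15), 0.00 ± 0.16 for Cyba (0.9988, -0.37 to 0.37), 0.53 ± 0.31 for Ncf1 (0.4243, -0.17 to 1.22), -0.64 ± 0.23 for Ncf4 (0.1906, -1.17 to -0.12) and -0.85 ± 0.75 for Rac2 (0.6174, -2.56 to 0.87). Fitted with culture number as a replicate block, since each number appears in every FL group, Cybb (-0.76, edgeR, adjusted p = 0.03028) and Ncf4 (-0.68, 0.03988) were called, among 1098 genes.

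For 4 members the direction was the same in the 3 cultures. From DMSO to AZD5582 the log2 ratio of Cybb was -0.77, -0.75 and -0.77 in cultures 91, 94 and 95. For Ncf4 it was -1.003, -0.38 and -0.67, for Rac2 -1.15, -0.62 and -1.17, and for Ncf1 0.33, 0.52 and 0.86. For Cyba it was -0.01, 0.01 and 0.02. Ncf1 libraries stood at 1723, 919 and 906 CPM in DMSO and 2163, 1316 and 1647 CPM with AZD5582, Ncf4 libraries at 84.7, 103 and 84.5 and at 42.3, 79.4 and 53.3 CPM, and Rac2 libraries at 64.0, 344 and 225 and at 28.8, 224 and 100 CPM.

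Culture 91 was the lowest in Rac2 (95.5 CPM at t0, beside 218 and 169 in cultures 94 and 95) and in Cybb in all 3 FL groups, and the highest in Ncf1 and Cyba in both groups after 24 h. Neutrophil markers ran in the same order of cultures as Rac2 and Cybb (91 lowest, 94 highest) in each FL group: their sums in cultures 91, 94 and 95 were 1364, 4483 and 2255 CPM at t0, 2222, 10509 and 4351 in DMSO, and 206, 3951 and 424 with AZD5582. Mast cell and eosinophil markers ran in that order too, with 404, 1493 and 781 CPM at t0, 858, 3555 and 1792 in DMSO and 486, 3815 and 1706 with AZD5582. Between DMSO and AZD5582, 0 of 16 neutrophil markers and 0 of 11 tested mast cell and eosinophil markers were called. Monocyte and macrophage sums went from 989, 1471 and 1712 CPM in DMSO to 360, 886 and 676 with AZD5582. Of 15 tested monocyte and macrophage markers 4 were called lower and 1 higher. Marker sums of cDC1 were highest in culture 91 in each FL group. In cultures 91, 94 and 95 they were 5583, 2388 and 2763 CPM at t0. They were 2326, 1113 and 1627 CPM in DMSO, and 4398, 1921 and 2666 with AZD5582. Mature DC sums were 7081, 7343 and 8278 CPM at t0. They went from 31636, 12138 and 15085 CPM in DMSO to 55157, 41216 and 55965 with AZD5582. Of the 12 mature DC markers 3 were called higher and 0 lower. The part of all these cells in the subunit values was not tested. With culture 91 left out, Ncf1 was called at 0.05 µM (0.74, edgeR, adjusted p = 0.02869).

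**Figure D4:**
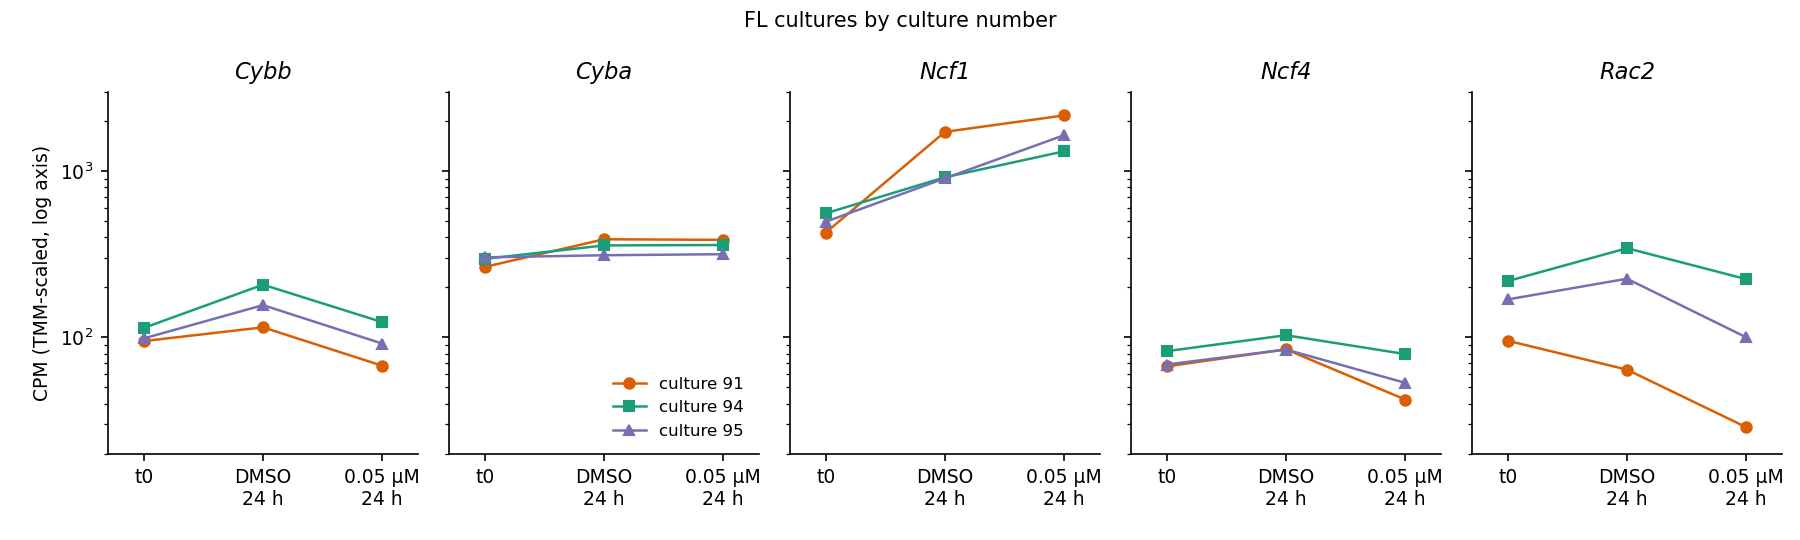
TMM-scaled CPM (log axis) of the 5 subunit genes in FL cultures at t0 and after 24 h with DMSO or 0.05 µM AZD5582, with a line for each culture number. From DMSO to AZD5582 the lines of Cybb, Ncf4 and Rac2 go down and those of Ncf1 go up in all 3 cultures, and the Cyba lines stay level.

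Over 24 h in DMSO, 1 member rose in FL cultures, where 10.1% of genes were called (4.96% up and 5.18% down). Ncf1 libraries went from 427, 558 and 496 CPM at t0 to the DMSO values above (log2 change 1.27 ± 0.31, edgeR, adjusted p = 0.03923). The call was lost without any FL t0 library (adjusted p 0.162, 0.0987 and 0.126 without cultures 91, 94 and 95) and without FL DMSO culture 91 (0.0579) or 95 (0.0535). Cybb (0.64, 0.1517), Cyba (0.30, 0.2597), Ncf4 (0.32, 0.3798) and Rac2 (0.39, 0.7632) were not called. With culture number as a replicate block 3107 genes were called, and Cybb beside Ncf1 (0.60, edgeR, adjusted p = 0.03517), with log2 ratios of 0.27, 0.86 and 0.67 in cultures 91, 94 and 95. The change over 24 h in DMSO was tested for a difference between FL and GM cultures, and no member was called, where 4.84% of genes were called (edgeR, 3126 at an unadjusted p under 0.05; DESeq2 also called no member).

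Across the 24 libraries, which fall into their 8 groups and share culture and treatment, Pearson's r of log2 CPM is given as a description. It was 0.93 for Cybb and Cyba, 0.79 for Ncf4 and Rac2, 0.71 for Cybb and Rac2 and 0.64 for Cybb and Ncf4. Ncf1 stood against the cytosolic members, with -0.67 for Rac2 and -0.51 for Ncf4, and at -0.20 for Cybb. For Cyba the r was 0.55 with Ncf4, 0.54 with Rac2 and -0.04 with Ncf1. All these r span both culture types, and within GM cultures the ratio of Cyba to Cybb changed as given above. Among 9534 genes, those most like Cybb were Zeb2 (0.99), Stom (0.99) and Timp2 (0.99), and those most like Cyba were Hpse (0.94), Itgb5 (0.94) and Tgm2 (0.94). Most like Ncf1 were Mxi1 (0.99), Socs2 (0.98) and Rftn1 (0.98), of which Socs2 is also on the list of mature DC markers. Most like Ncf4 were Hp (0.94), Clec4a1 (0.92) and Mtus1 (0.90), and most like Rac2 were Ctdspl (0.98), Tspan32 (0.97) and Pilrb2 (0.97).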

How the data were processed

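Messenger RNA of 24 libraries was sequenced (TruSeq Stranded mRNA, NovaSeq6000, per the labels' protocols). Per the submitters' processing notes, STAR 2.7.3a, HTSeq 0.12.4 and DESeq2 1.30.1 were used, with the build GRCm39. No source used here gives the annotation release or the strand setting. The authors deposited raw counts per gene, 1 file per library. Lines naming no gene, 11.0% to 16.4% of reads, stayed out of library sizes and tests. Symbols were matched by identifier for 52081 of 55414 genes.

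Counts were scaled by TMM, filtered by filterByExpr and tested with edgeR 4.0.16 in R 4.3.3 (robust quasi-likelihood, group means, no block; limma 3.58.1). GM comparisons used the 15 GM libraries (16152 genes), FL comparisons the 9 FL libraries (15961) and comparisons across culture types all 24 (17262). Benjamini-Hochberg adjustment ran over all genes of a comparison, and a gene was called under 0.05. CPM is a count per 1e+06 of library size scaled over all 24 libraries, whereas each fit was scaled over its own libraries. The fits were tested on simulated data. No 2 libraries of a group agreed within sampling noise. Lists are described by counts and medians; no list was tested.

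FL libraries of one culture number deviated together between DMSO and AZD5582 (r = 0.85, 0.87 and 0.31 for cultures 91, 94 and 95, numbers from the titles), so the blocked values are given there. Between t0 and DMSO the r were 0.26, 0.40 and 0.09. GM libraries of one number (from the titles) deviated together between 0.1 and 0.5 µM (0.25, 0.31 and 0.62) and between 0.1 and 1 µM (0.18, 0.24 and 0.52); in each other pair of GM groups at least 1 of 3 was under 0.1.

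Genes were named by rule: the 5 members, the 4 called genes of smallest p in each list with 2 called in the opposite direction (fewer where fewer were called; some genes the rule names are not reported here), and the 3 most similar genes of each member with at least 10 CPM in a group. Rac1, Cybc1 and Gtf2ird2 were added for their role or position after their values were seen. Members, lists and motifs were chosen with earlier results of these data known. Alternatives were DESeq2 1.42.0, other scaling, no filter, the compared groups alone, all 24 libraries in one fit, a replicate block, and each library or culture 91 left out.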

Additional observations from a re-analysis of the deposited data

How the results depend on the processing

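Of 740 values of members under other settings, 674 kept their direction and their side of the threshold, 34 lost a call, 20 gained one and 12 changed sign; none of the 12 was called. The calls of the 3 GM doses against DMSO were kept under every alternative except that of Rac2 at 0.1 µM with all 24 libraries in one fit (-1.36, adjusted p = 0.0621). That fit called 3874 genes at 0.1 µM, and 85 genes and 1 member between 0.1 and 0.5 µM.

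Fits with a replicate block called 1098 genes and 2 members (Cybb, Ncf4) for 0.05 µM in FL cultures, and 3107 genes and 2 members for FL DMSO against t0, where Cybb was called as well (0.60, adjusted p = 0.0352); the block changed no other call. Between GM 0.1 and 0.5 µM, where same-numbered libraries deviated together, the block called all 5 members. It moved the count of genes there by less than 1.5 times. In each other GM comparison reported, at least 1 of 3 same-numbered pairs was under 0.1, which does not show the libraries to be unpaired. Correlations of deviations ran from -0.07 to 0.62 over all 30 same-numbered GM pairs. Their median was 0.13, beside -0.10 for GM pairs of unlike numbers. One fit of all 24 libraries called 2721 genes and 2 members, and 5307 genes and 2 members, in these FL comparisons. DESeq2 called 1526 and 3503 genes, and the compared groups alone 31 and 582 genes, with 0 members for DMSO against t0. Without culture 91, 2283 genes and 1 member (Ncf1) were called for 0.05 µM. With the block as well, an alternative chosen after seeing the data, 3958 genes and 4 members were called (Cyba not), and 3640 genes and 3 members for DMSO against t0.

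With single libraries left out, genes called ranged from 17 to 1983 (FL 0.05 µM, 0 to 1 members), 13 to 1454 (FL DMSO against t0, 0 to 1 members), 1062 to 1737 (GM 0.5 against 0.1 µM, 1 to 5 members), 0 to 1 (GM 1 against 0.5 µM) and 486 to 1869 (difference of the 24 h change). Members called in FL against GM in DMSO ranged from 3 to 5. Between 0.5 and 1 µM, 77 genes were called without a filter and 8 by DESeq2. FL against GM in DMSO gave 3866 genes with the compared groups alone. The difference of the 24 h change gave 503 genes without a filter and 261 with the compared groups alone; its median over all genes was -0.12, and -0.04 with median-of-ratios scaling.

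The values that changed sign were all of members not called. For GM 1 against 0.5 µM, over single libraries left out, Cyba ranged from -0.11 to 0.21, Ncf1 from -0.033 to 0.10, Ncf4 from -0.10 to 0.24 and Rac2 from -0.11 to 0.22; the lowest values of Cyba, Ncf4 and Rac2 came without GM 1 µM replicate 1. For FL 0.05 µM, Cyba ranged from -0.079 to 0.12 and was -0.0055 with the compared groups alone. For FL DMSO against t0, Rac2 ranged from -0.15 (without the DMSO library of culture 94) to 0.82. In the difference of the 24 h change, Cybb ranged from -0.37 to 0.055 and Ncf1 from -0.092 to 0.44, both changing sign without the DMSO library of culture 91, and Cybb was 0.014 with the compared groups alone. The cause was not tested. On plain library totals, 15 of 40 group means of members moved by more than their SD.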
